A study of Arabidopsis thaliana with 6 samples.

Results

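The genes described here are the ribosomal protein and RNA polymerase genes that Arabidopsis thaliana carries in its plastid genome. They were taken as the genes placed on the plastid chromosome by the gene table whose symbol starts with rpl (large ribosomal subunit), rps (small ribosomal subunit) or rpo (RNA polymerase) and to which the array annotation pairs a probe set with no other gene. Of 25 such symbols, 19 met this rule, with 7 rpl genes, 8 rps genes and all 4 rpo genes, and each had 1 probe set. Another 4 symbols have only probe sets listed under 2 gene entries. The 19 genes stand among 69 plastid protein-coding genes with a probe set and among 22746 probe sets tested in all.

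The annotation names 13356 genes in all through such probe sets. Expression was measured on 1-colour Affymetrix Arabidopsis arrays in 2 groups of 3 arrays, 35S:PCO1 and wild type. In 35S:PCO1 plants the cauliflower mosaic virus 35S promoter, which is active in most tissues, drives PCO1 (plant cysteine oxidase 1); the labels do not say how many lines were used. Both groups spent 4 h at 5% oxygen without light, so no value measures a response to low oxygen itself. The labels name 2 ages, 4 and 5 weeks, and 2 kinds of material, the rosette and the whole plant. Whether replicates were separate plants is not said; a p-value here sets the groups against the spread between arrays, part of which may be technical. No probe set is paired with PCO1 in the annotation, so its level is not analysed here and the transgene gave no check of the genotype labels.

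Plastids keep a small genome of bacterial origin and translate its messages on ribosomes of bacterial type. Some proteins of these ribosomes are encoded in the plastid and the others in the nucleus, from where they are imported. The plastid genome is read by a bacterial-type polymerase, whose core the rpo genes encode and which transcribes most photosynthesis genes, and by phage-type polymerases made from nuclear genes, which transcribe among others the operon of rpoB. Most plastid messages lack the long poly(A) tail of nuclear messages, and the primer used for labelling is not given in the sources used here.

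All 19 genes had a positive log2 change (35S:PCO1 minus wild type), and none passed the test. By limma with Benjamini-Hochberg adjustment over all probe sets, 0 of 19 were called at an adjusted p under 0.05, against 0.264% of all probe sets, and the adjusted p of the 19 lay between 0.16 for rps2 and 0.88 for rpoA. The count stayed 0 at an adjusted p under 0.10 (0.365% of all probe sets) and with the replicate number as a block (0.114% of all probe sets). At an unadjusted p under 0.05 the count was 15 of 19, all with a positive change. That level was met with a positive change by 24 of the other 50 plastid genes and by 3.53% of all probe sets. The median log2 change was 0.405, and the single changes ranged from 0.075 to 0.73. Over all tested probe sets the median was -0.012, and 44.8% of changes were positive. In 13 of the 19 genes every 35S:PCO1 array lay above every wild-type array. That order was held by 28 of the other 50 plastid genes with a probe set and by 5.68% of all probe sets. These genes share arrays and plastids and are not independent of each other. The array cannot tell more plastids or plastid genomes per cell from more of each message per plastid, nor either of these from a different mix of cells.

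**Figure D1:**
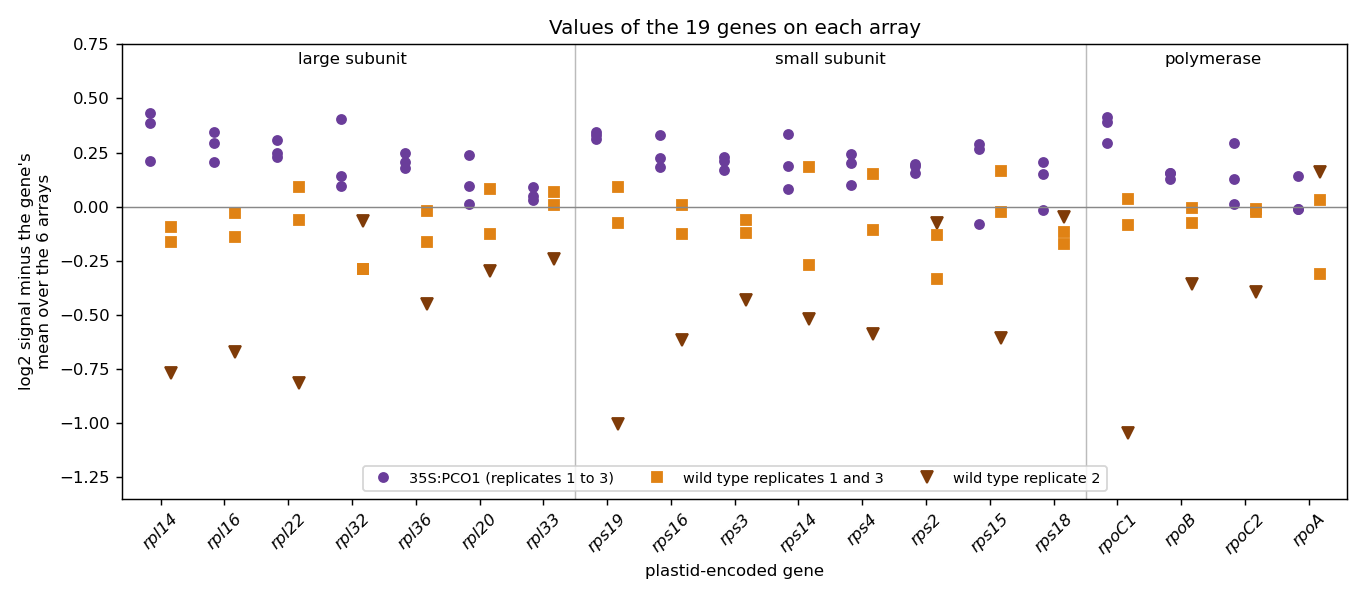
Log2 signal of each of the 19 genes on each array (vertical axis, relative to the gene's mean over the 6 arrays), with 35S:PCO1 arrays on the left and wild-type arrays on the right of each gene and genes sorted by log2 change within each class. In 15 genes the lowest point is wild type replicate 2, and in 13 genes all 35S:PCO1 points lie above all wild-type points.

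The large-subunit genes had a median log2 change of 0.43, and the 3 highest lie side by side in the plastid gene order apart from rps3 between rpl16 and rpl22. rpl14 encodes a protein that in Escherichia coli forms part of a bridge between the subunits. It read 9.45, 9.23 and 9.40 on 35S:PCO1 replicates 1, 2 and 3, against 8.85, 8.25 and 8.92 on wild type replicates 1, 2 and 3. The groups did not overlap, and wild type replicate 2 was the lowest array. The log2 change of rpl14 was 0.69 (SE 0.16, 95% interval 0.32 to 1.05, 1.61-fold), with an adjusted p of 0.20 by limma.

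rpl16, whose bacterial counterpart lies near the site of peptide bond formation, read 9.28, 9.14 and 9.22 in 35S:PCO1, against 8.90, 8.26 and 8.79 in wild type. rpl22, whose bacterial counterpart lines the exit tunnel for the new protein, read 11.06, 10.98 and 11.00 in 35S:PCO1, against 10.69, 9.93 and 10.84 in wild type. In both genes the groups did not overlap and wild type replicate 2 was the lowest array, by more than the whole spread of the 35S:PCO1 arrays. The log2 change was 0.56 (SE 0.15) for rpl16 and 0.53 (SE 0.20) for rpl22.

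rpl36, which encodes a very small protein of the subunit, read 10.71, 10.64 and 10.67 in 35S:PCO1, against 10.30, 10.01 and 10.44 in wild type, again without overlap (log2 change 0.42, SE 0.10). rpl32, which tobacco plastids cannot lose, was singled out after its values were seen, because wild type replicate 2 was not its lowest array. It read 10.41, 10.72 and 10.46 in 35S:PCO1, against 10.03, 10.25 and 10.03 in wild type. The groups did not overlap, and the log2 change was 0.43 (SE 0.098, adjusted p 0.19 by limma).

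The other 2 large-subunit genes had overlapping groups and the smallest changes of the class. rpl20, whose bacterial counterpart joins the subunit early in its assembly, read 6.22, 5.99 and 6.07 in 35S:PCO1, against 5.85, 5.68 and 6.06 in wild type (log2 change 0.23, SE 0.10). rpl33, which tobacco can lose except in the cold, read 10.67, 10.63 and 10.61 in 35S:PCO1, against 10.65, 10.34 and 10.59 in wild type. For rpl33 wild type replicates 1 and 3 lay within the range of the 35S:PCO1 arrays or just below it. Its log2 change was 0.11, with a 95% interval from -0.082 to 0.30.

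The small-subunit genes had a median log2 change of 0.38. rps19, whose bacterial counterpart sits in the head of the subunit, read 11.12, 11.11 and 11.09 in 35S:PCO1, against 10.70, 9.77 and 10.87 in wild type. The 35S:PCO1 arrays were close together (SD 0.017) and the wild-type arrays far apart (SD 0.59), without overlap. The log2 change of rps19 was 0.66 (SE 0.24, 95% interval 0.12 to 1.20), with an adjusted p of 0.40 by limma.

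rps16, whose bacterial counterpart takes part in subunit assembly, was dim. It read 5.05, 4.94 and 4.90 in 35S:PCO1, against 4.59, 4.10 and 4.72 in wild type, without overlap (log2 change 0.49, SE 0.14). rps3, whose bacterial counterpart lines the entry channel for the message, read 11.08, 11.02 and 11.06 in 35S:PCO1, against 10.79, 10.42 and 10.73 in wild type. Its groups were separated by more than the spread within 35S:PCO1, and its log2 change was 0.41 (SE 0.095, adjusted p 0.20 by limma).

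Among the lower small-subunit changes, rps2 had the smallest adjusted p of all 19 genes. It read 7.42, 7.38 and 7.41 in 35S:PCO1, against 6.89, 7.15 and 7.09 in wild type, where replicate 1 and not replicate 2 was the lowest array. The log2 change of rps2 was 0.36 (SE 0.076, 95% interval 0.19 to 0.53, 1.28-fold), and the adjusted p was 0.16 by limma. rps2, like rpl20, cannot be lost from tobacco plastids.

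rps18 read 9.05, 8.83 and 8.997 in 35S:PCO1, against 8.68, 8.80 and 8.73 in wild type, a gap of 0.033 between the nearest arrays of the groups. Its log2 change was 0.23 (SE 0.074). rps15, which tobacco plastids can lose, read 7.51, 7.16 and 7.53 in 35S:PCO1, against 7.22, 6.64 and 7.41 in wild type. The groups of rps15 overlapped, since 35S:PCO1 replicate 2 lay below both wild type replicates 1 and 3 (log2 change 0.31, SE 0.18). rps14 and rps4 also had overlapping groups, with log2 changes of 0.40 (SE 0.16) and 0.36 (SE 0.16); the bacterial counterpart of rps4 is one of the first proteins to bind the rRNA of the small subunit.

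The polymerase genes had a median log2 change of 0.29 and held both the largest and the smallest change of the 19. rpoC1, for the beta prime subunit of the core, read 7.54, 7.44 and 7.56 in 35S:PCO1, against 7.06, 6.10 and 7.18 in wild type. Wild type replicate 2 lay 1.02 below the mean of the other wild-type arrays. The log2 change of rpoC1 was 0.73 (SE 0.24, 1.66-fold), with an adjusted p of 0.34 by limma.

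rpoB, for the beta subunit, was dim, with 4.45, 4.48 and 4.48 in 35S:PCO1, against 4.25, 3.96 and 4.31 in wild type, and a log2 change of 0.29 (SE 0.091). rpoC2, for the beta double prime subunit, read 7.39, 7.27 and 7.55 in 35S:PCO1, against 7.25, 6.86 and 7.23 in wild type, and also had a log2 change of 0.29 (SE 0.11). In rpoB and rpoC2, as in rpoC1, the groups did not overlap, although the nearest arrays of rpoC2 were 0.023 apart. rpoA, for the alpha subunit that assembles the core, differed from these in its array order. It read 11.54, 11.39 and 11.39 in 35S:PCO1, against 11.43, 11.56 and 11.09 in wild type, so wild type replicate 2 was the highest of all arrays. Its log2 change was 0.075, with a 95% interval from -0.18 to 0.33, and was -0.060 without wild type replicate 3.

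Wild type replicate 2 was the lowest of the 6 arrays in 15 of the 19 genes, which was so for 36 of the other 50 plastid genes and for 15.8% of all probe sets. It deviated from the mean of wild type replicates 1 and 3 by -1.02 to 0.30, with a median of -0.38. The 4 exceptions were rps2, rps18, rpoA and rpl32, in which it lay above both other wild-type arrays. This array also stood apart in the controls for RNA quality. The log2 signal at the 3 prime end minus that at the 5 prime end of GAPDH was 0.42 to 0.44 in 35S:PCO1 and 0.29, 0.81 and 0.27 in wild type replicates 1, 2 and 3. For actin it was 1.37 to 1.47 in 35S:PCO1 and 1.42, 1.78 and 1.52 in wild type, and for ubiquitin wild type replicate 2, at 0.98, lay between the other wild-type arrays. The control probe set for 5S rRNA was also lowest on wild type replicate 2, at 3.93, with all 35S:PCO1 arrays above all wild-type arrays. The control for 25S rRNA did not have that order, with 12.16 on wild type replicate 2. The part of RNA quality in the plastid values was not tested.

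Without wild type replicate 2 all 19 changes were still positive, and 15 were smaller than with all arrays, those of rps2, rps18, rpoA and rpl32 being larger. The median log2 change was 0.26 (range 0.016 to 0.50), against 0.21 in the other 50 plastid genes and -0.0068 over all probe sets. No gene was called, with 0.264% of all probe sets called in that fit, and the smallest adjusted p was 0.10, for rpl14. The groups did not overlap in 13 genes, against 32 of the other 50 plastid genes and 11.6% of all probe sets with this order when 1 array fewer is compared. At an unadjusted p under 0.05 by limma there were 12 of 19. That level was met with a positive change by 27 of the other 50 plastid genes and by 4.54% of all probe sets. rpl32 then had the largest change (0.50, SE 0.097), followed by rpl14 (0.47, SE 0.082) and rps2 (0.41, SE 0.078). The change of rpoC1 was 0.39 (SE 0.073) and that of rps19 was 0.32 (SE 0.073). rpl33 was at 0.016 (95% interval -0.13 to 0.16) and rps15 at 0.087 (95% interval -0.19 to 0.36).

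With array weights in limma, which were 2.34, 0.605 and 1.16 for 35S:PCO1 replicates 1, 2 and 3 and 1.93, 0.552 and 0.57 for those of the wild type, 3 of 19 were called, against 0.343% of all probe sets called higher in that fit. These were rps2 (adjusted p 0.024), rpl14 (adjusted p 0.042) and rpl36 (adjusted p 0.044), all with a positive change.

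**Figure D2:**
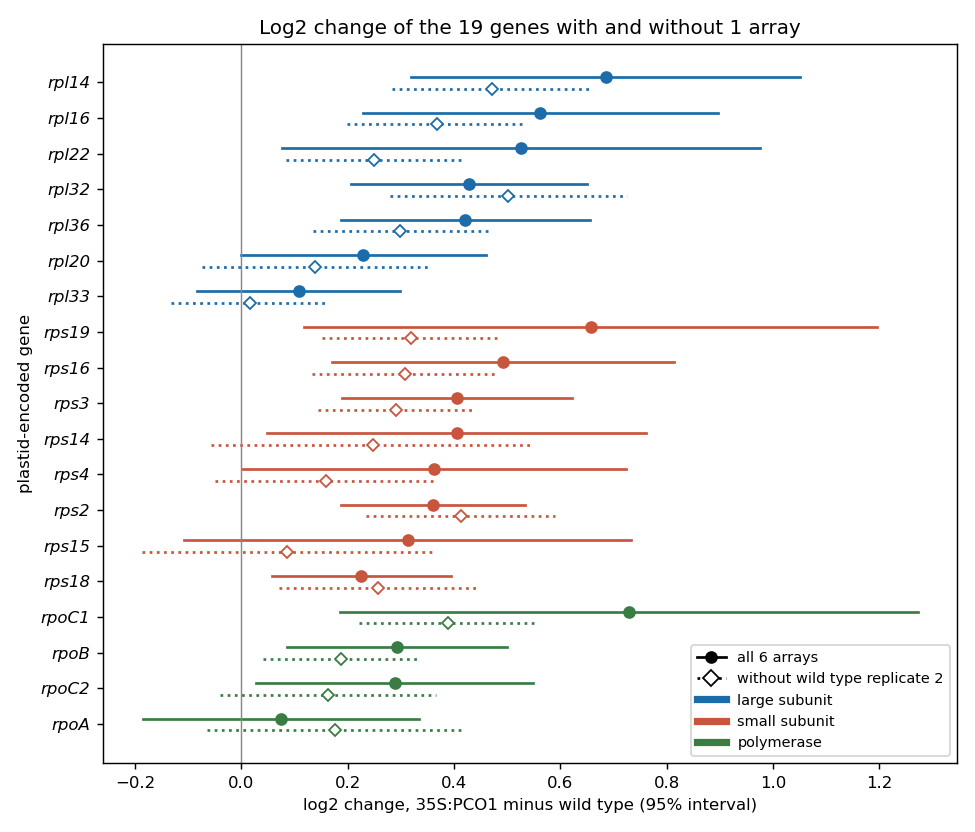
Log2 change of each of the 19 genes (35S:PCO1 minus wild type, horizontal axis) with its 95% interval from limma, from all 6 arrays (filled circles) and without wild type replicate 2 (open diamonds). Every point lies right of 0, and for rpoC1, rps19 and rpl22 the point is closer to 0 and the interval narrower without that array.

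The median changes of the 3 classes lay between 0.29 and 0.43. The 7 large-subunit genes averaged 9.64 ± 0.035 in 35S:PCO1 and 9.22 ± 0.23 in wild type (SD, n = 3 each). The 8 small-subunit genes averaged 8.46 ± 0.039 in 35S:PCO1 and 8.06 ± 0.25 in wild type, and the 4 polymerase genes averaged 7.71 ± 0.054 in 35S:PCO1 and 7.36 ± 0.21 in wild type (SD, n = 3 each). On each of the 3 class means all 35S:PCO1 arrays lay above all wild-type arrays. The differences of these means were 0.42, 0.40 and 0.35 for large subunit, small subunit and polymerase, and 0.29, 0.26 and 0.23 without wild type replicate 2. Whether the classes differ from each other was not tested. Without wild type replicate 2 the medians were 0.30, 0.27 and 0.18, in the same order.

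The median change of the rest of the plastid genome was of similar size, with a wider range. The other 50 plastid genes, most of them for photosynthesis and the NDH complex, had a median log2 change of 0.33, with 49 positive. None was called by limma, and 24 had an unadjusted p under 0.05 with a positive change, as had 3.53% of all probe sets. The mean of the other 50 was 9.58, 9.63 and 9.54 on the 35S:PCO1 arrays, against 9.36, 8.75 and 9.44 on the wild-type arrays. The 19 genes averaged 8.78, 8.70 and 8.74 in 35S:PCO1, against 8.44, 8.07 and 8.50 in wild type. Taken within each array, the mean of the 19 minus that of the other 50 was -0.84 ± 0.075 in 35S:PCO1 and -0.84 ± 0.15 in wild type (SD, n = 3 each), a difference of -0.0029. Without wild type replicate 2 that difference was 0.081, and the wild-type mean was -0.92. With each array taken relative to the other plastid genes and wild type replicate 2 left out, a setting chosen only once values were known, 1 of the 19 was called, rpl32 (log2 change 0.32, adjusted p 0.044 by limma). In that fit 0.0967% of all probe sets were called higher and 19.5% in either direction. Wild type replicate 2 deviated over a wider range in the other plastid genes, by -3.32 to 0.33 with a median of -0.46. That median was not shared by all gene families. It was -0.18 for the 15 psb genes, -0.36 for atp, -0.47 for psa, -0.70 for ndh and -0.72 for pet genes.

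**Figure D3:**
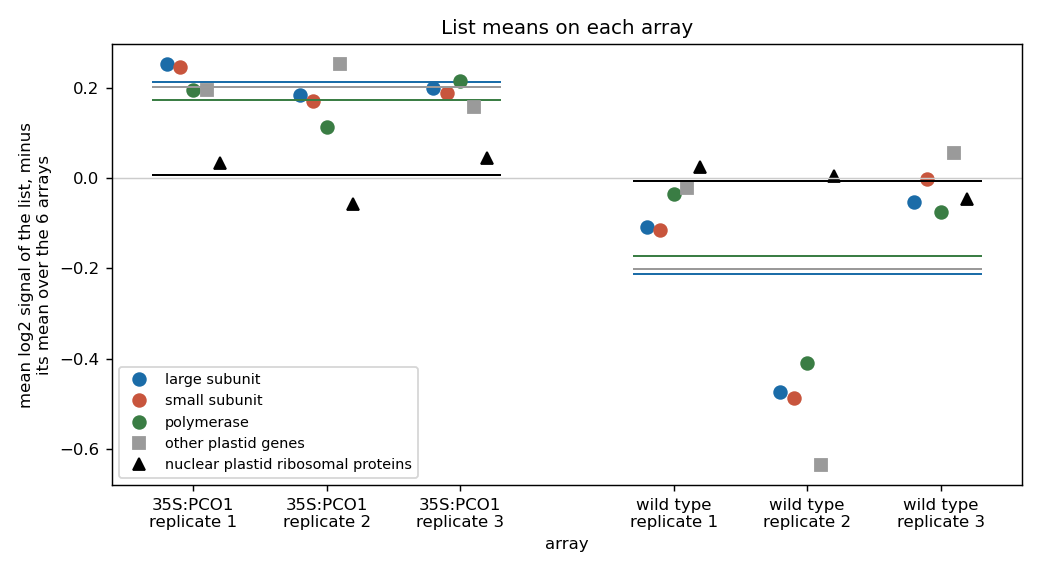
Mean log2 signal of the large-subunit, small-subunit and polymerase genes, of the other plastid genes and of the nuclear genes for plastid ribosomal proteins on each array (vertical axis, relative to each list's mean over the 6 arrays), with horizontal lines at the group means. The plastid-encoded lists lie higher on all 35S:PCO1 arrays than on any wild-type array and lowest on wild type replicate 2, and the nuclear list does neither.

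Position along the plastid genome gave another grouping that the choice of genes had not used. Runs of neighbouring rpl, rps and rpo genes were read from the gene order. The run from rpoA to rps19 holds 7 of the measured genes (rpoA, rpl36, rpl14, rpl16, rps3, rpl22 and rps19), and its median log2 change was 0.53, or 0.30 without wild type replicate 2. Apart from rpoA, at one end of it, each gene of this run had a change of 0.41 to 0.69 and groups without overlap. In the run of rps2, rpoC2, rpoC1 and rpoB the median was 0.33, or 0.29 without that array, and no gene had overlapping groups. The run of rpl33, rps18 and rpl20 had the lowest median of these 3 runs, 0.23, or 0.14 without that array. Groups without overlap, with 35S:PCO1 higher, were also found in 28 of the other 50 plastid genes and in 5.68% of all probe sets. Differences between runs were not tested.

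Some genes next to members differed from them in the order or the size of their array values. Those given here are examples of such differences, and not every neighbour is given. Others were alike: ndhJ, next to rps4, had a log2 change of 0.36 (SE 0.14), and rps4 had 0.36 (SE 0.16). On wild type replicate 2 ndhJ lay 0.54 below the mean of the other wild-type arrays. atpI, which lies beside rps2 and encodes a subunit of the ATP synthase, read 6.50, 6.74 and 6.69 in 35S:PCO1, against 6.30, 4.05 and 6.46 in wild type. Its low value on wild type replicate 2 contrasts with rps2, for which that array was the highest of the wild type. ycf3, a photosystem I assembly factor beside rps4, read 8.76, 8.71 and 8.87 in 35S:PCO1, against 7.92, 4.86 and 8.45 in wild type, while rps4 on wild type replicate 2 was 0.61 below the mean of the other wild-type arrays. petD, beside rpoA and for a subunit of the cytochrome b6f complex, had a log2 change of 0.67 (SE 0.25), against 0.075 for rpoA, and 0.33 against 0.18 without wild type replicate 2.

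**Figure D4:**
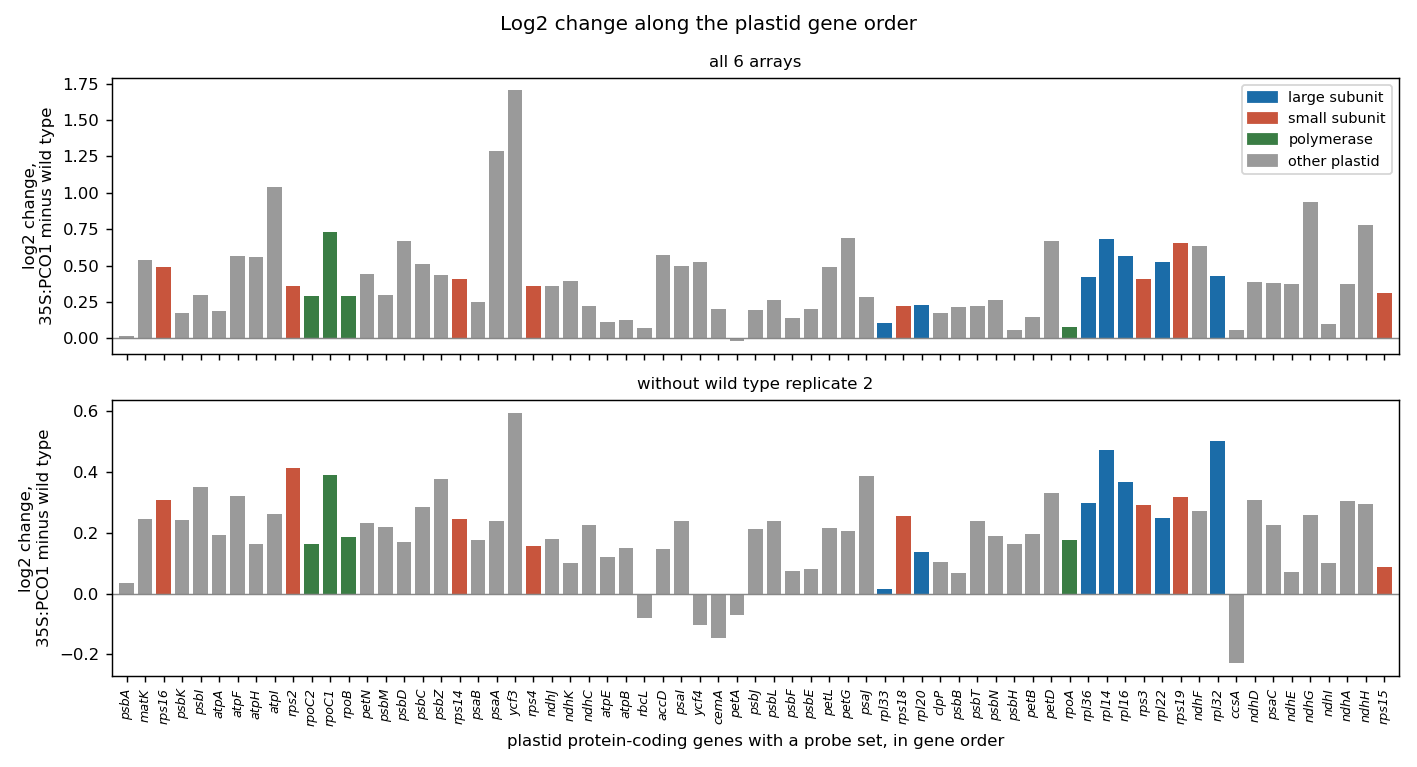
Log2 change (35S:PCO1 minus wild type, vertical axis, with a different scale in each panel) of the 69 plastid protein-coding genes with a probe set, in gene order, from all 6 arrays (upper panel) and without wild type replicate 2 (lower panel). All 19 ribosomal and polymerase genes are above 0 in both panels; of the other 50, 49 are above 0 in the upper panel and 45 in the lower.

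Nuclear genes for proteins of the same ribosome had changes near 0. Of a list of 41 such genes, 10 could be matched to a probe set, none was called by limma (0.264% of all probe sets) and none had an unadjusted p under 0.05 (10.4% of all probe sets). Without wild type replicate 2 again none was called, and 1 of the 10, AT5G47190, had an unadjusted p under 0.05 (11.4% of all probe sets); its log2 change was then 0.16 (SE 0.067), its adjusted p was 0.41 by limma and its groups did not overlap. Without that array the median log2 change of the 10 was 0.0084 (range -0.060 to 0.16). With all arrays it was 0.025 (range -0.071 to 0.11), and the mean of the 10 was 11.22 ± 0.056 in 35S:PCO1 and 11.20 ± 0.033 in wild type (SD, n = 3 each). The largest changes in the large subunit were those of AT5G47190 at 0.11 (SE 0.067) and AT1G29070 at 0.085 (SE 0.062). In the small subunit they were those of AT5G24490, which encodes a plastid-specific ribosomal protein, at -0.071 (SE 0.061), and AT1G64510 at 0.034 (SE 0.070). Wild type replicate 2 was the lowest array in 2 of these 10 genes.

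Nuclear partners of the plastid polymerase were hardly covered. Of 8 sigma factors and phage-type polymerases only AT5G15700 was matched, a phage-type polymerase directed to mitochondria and plastids, at 5.68 ± 0.026 in 35S:PCO1 and 5.56 ± 0.042 in wild type (SD, n = 3 each; log2 change 0.13, SE 0.057, adjusted p 0.50 by limma). None of 12 polymerase-associated proteins and none of 10 mitochondrial rpl and rps genes was matched, and they are not analysed here.

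Markers of leaf tissue were near the top of the scale in both groups. The 3 matched of 14 rosette markers averaged 12.91 ± 0.043 in 35S:PCO1 and 12.95 ± 0.019 in wild type (SD, n = 3 each), with PSAN, a photosystem I subunit, at a log2 change of -0.10 (SE 0.065), LHCB4.1, an antenna protein, at -0.056 (SE 0.058) and RCA, the activase of Rubisco, at 0.039 (SE 0.055). The 3 matched of 12 root markers averaged 5.80 ± 0.024 in 35S:PCO1 and 5.86 ± 0.043 in wild type (SD, n = 3 each). Among them PYK10, a beta-glucosidase abundant in roots, had a log2 change of -0.18 (SE 0.097), AT2G47540 one of 0.11 (SE 0.068) and EXPA7, a root hair expansin, one of -0.10 (SE 0.088). Without wild type replicate 2 these were -0.066 for PYK10, 0.12 for AT2G47540 and -0.19 for EXPA7. None of these 6 was called, with or without wild type replicate 2 (0.264% of all probe sets in each fit). Without that array EXPA7 had an unadjusted p of 0.027 by limma (11.4% of all probe sets were under 0.05) and an adjusted p of 0.37. In EXPA7 and LHCB4.1 every 35S:PCO1 array then lay below both remaining wild-type arrays, as in 3722 of 22746 probe sets. Flower and seed markers were not matched. The part of tissue composition in the plastid values was not tested.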

How the data were processed

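The authors deposited values on the log2 scale; per the submitters' processing notes they come from RMA, the robust multi-array average, with version and probe definition not given in the sources used here. That method subtracts background, makes the distributions of all arrays alike by quantile normalization and summarises each probe set, and it compresses changes of dim probe sets. Array medians lay between 5.86 and 5.91, the lowest values between 2.73 and 2.81, and array correlations between 0.9944 and 0.9985. Precision is limited by the number of arrays. No detection calls were used.

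Of 22810 probe sets, 64 controls were left out. Of the others, 13513 have 1 gene in the older platform annotation, 503 several and 8730 are not listed. Names and plastid gene order came from the TAIR10.1 gene table; no coordinates or sequences are given. Each probe set was fitted with limma (lmFit, eBayes; version 3.58.1, R 4.3.3) on the genotype alone, 2-sided, with Benjamini-Hochberg adjustment over 22746 probe sets. The procedure was tested on simulated data.

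The members and lists were chosen with earlier results of these data known. Values by array were to be given for the 3 highest and 3 lowest changes among rpl and among rps genes and for all rpo genes, and from each nuclear list for up to 4 called members or else the 2 with the largest absolute change; the third matched rosette and root markers were added after their values were seen. As alternatives, the fit was repeated with the replicate number as a block, other scalings, array weights, eBayes with trend and robust settings, a filter on dim probe sets, another threshold and each array left out.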

Additional observations from a re-analysis of the deposited data

Results flagged for a closer look

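The 5 probe sets that are listed under 2 gene entries each, with the same rpl or rps symbol in both, are left out of the report's comparisons and added only to a median among the alternatives. They cover 4 symbols, rpl2, rpl23, rps7 and rps12, and are given by their values without a gene of their own. In 3 of them every 35S:PCO1 array lay above every wild-type array, an order held by 5.68% of all probe sets. Their log2 changes were 0.41, 0.20 and 0.42 (adjusted p 0.40, 0.34 and 0.31 by limma). The most marked of the 3 read 12.08, 12.13 and 12.08 in 35S:PCO1, against 11.76, 11.35 and 11.91 in wild type. The other 2 had log2 changes of 0.24 each with overlapping groups. Wild type replicate 2 was the lowest array in all 5, which was so for 15.8% of all probe sets, and without it the 5 changes ranged from 0.11 to 0.26.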

How the results depend on the processing

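In all alternatives run but 2, none of the 19 genes was called; array weights gave 3 and a scaling chosen after seeing the data gave 1. That scaling takes each array relative to its mean over the other plastid genes and leaves out wild type replicate 2; rpl32 then had a log2 change of 0.32 (adjusted p 0.044 by limma), while 19.5% of all probe sets were called. Scaling to the other plastid genes moves the median of all probe sets to -0.41, or -0.19 without wild type replicate 2. Under it, the median change of the 19 genes was 0.0038, with 0.027 for large-subunit, -0.017 for small-subunit and -0.11 for polymerase genes, and without wild type replicate 2 as well these medians were 0.073 for the 19, 0.12 for large-subunit, 0.091 for small-subunit and -0.0024 for polymerase genes. Changes turned negative for 9 genes: rps2 (-0.041), rpoC2 (-0.11), rpoB (-0.11), rps4 (-0.038), rpl33 (-0.29), rps18 (-0.18), rpl20 (-0.17), rpoA (-0.33) and rps15 (-0.088). Without wild type replicate 2 they were negative for 6: rpoC2 (-0.020), rps4 (-0.025), rpl33 (-0.17), rpl20 (-0.046), rpoA (-0.0078) and rps15 (-0.097). This scaling removes by construction what all plastid genes share. With 1 array left out, the median of the 19 ranged from 0.26 to 0.45, and no change turned negative except that of rpoA without wild type replicate 3 (range for rpoA -0.060 to 0.18). With the replicate number as a replicate block 0 genes were called (smallest adjusted p 0.19). Deviations of same-numbered arrays correlated at -0.059, -0.22 and -0.26, so the numbers are not used as pairs. At an adjusted p under 0.10 the count was 0. The filter on dim probe sets left 17 genes, without rps16 and rpoB. Averaging the probe sets of a gene could not differ, since each has 1, and was not run. Adding the 5 probe sets with 2 gene entries gave a median of 0.38. Weights changed the count of all called probe sets from 60 to 255, a replicate block to 26, and leaving out 1 array to between 23 and 60.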

Other observations

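Across the 19 genes, the change without wild type replicate 2 and the deviation of that array from the other wild-type arrays had a Pearson r of 0.0053, with both measures sharing wild type replicates 1 and 3. Against gene length on a log2 scale, r was -0.019 for the change without that array and -0.15 for the deviation. These are descriptions over genes of 1 genome on the same arrays, which are not independent.

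The control probe set for 5S rRNA read 5.651 to 5.655 on the 35S:PCO1 arrays, against 4.98, 3.93 and 5.45 on wild type replicates 1, 2 and 3. The control for 25S rRNA averaged 12.00 ± 0.14 in 35S:PCO1 and 12.08 ± 0.071 in wild type (SD, n = 3 each).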
